A study of Mus musculus with 4 samples.

Results

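The genes described here are those whose symbol opens with Cep, Ift or Bbs and a number, that is the numbered centrosomal proteins, the intraflagellar transport proteins and the Bardet-Biedl syndrome proteins. The symbol alone decides whether a gene is a member, but these symbols were chosen with earlier results of these data known. In all, 62 of the 52550 genes with deposited counts carry such a symbol, 39 Cep, 15 Ift and 8 Bbs genes. RNA immunoprecipitation (RIP), in which an antibody recovers a protein with the RNA it holds, was carried out with anti-YTHDF2 antibody on retinas of wild-type C57BL/6 mice at postnatal day 0. Papain was used to dissociate the retinas, and each of 2 biological replicates yielded 1 library of total RNA set aside ahead of the pulldown (input) and 1 library of the RNA recovered by the antibody (RIP), 4 libraries in all. The question was which transcripts YTHDF2 holds in the newborn retina. All groups were wild type, no library lacked YTHDF2, and the control IgG pulldown that the methods name was not analysed here, so that an enrichment is measured against input alone.

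The centrosome is a pair of centrioles in a protein matrix, and when a cell stops dividing its older centriole docks at the membrane and becomes the base of a primary cilium. Intraflagellar transport builds that cilium with trains of IFT-A and IFT-B complexes, and the BBSome, made of Bardet-Biedl proteins, rides on these trains and carries membrane proteins in and out. In the retina progenitors carry a primary cilium and photoreceptors turn theirs into the light-sensing outer segment, so that mutations of many of these genes are known from retinal degenerations. YTHDF2 is a reader of N6-methyladenosine (m6A), a mark that sits on the adenosine of a short consensus of which GGACT is the best known form.

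Stretches of coding sequence around that pentamer are shown for the transcripts on which the results below turn, so that the element a reader protein could meet through m6A can be seen in place. Each line gives 29 bases around a GGACT, in capitals, 5′ to 3′ on the strand of the gene. It is the coding GGACT closest to the stop codon whose 29 bases lie uninterrupted in the coding part of a single exon. Copies in untranslated regions or too near an exon junction were passed over. The transcript is the longest protein-coding one of GENCODE M21 on GRCm38.
Cep97: ggatcagagttcGGACTggctcgttgctg
Cep170b: tctggccagccaGGACTtgggaaagcccg
Cep170: ttgacccagatgGGACTttggaggctctt
Ift172: tagccgtgcagtGGACTgctacctcaaag
Ift140: cctacagtccctGGACTggcggaaggagc
Ift74: gtggtcccttagGGACTggtggagttttg
Ift57: atgaaattagcaGGACTctggaaaagatt
Ift43: tgatgtgggctgGGACTgggaccatctgt
Cep112: ggaacgggtgcaGGACTcatgggtaggaa
The stretches lie at chr16:55905707-55905735 (minus strand) in Cep97, chr12:112744733-112744761 (plus) in Cep170b, chr1:176735938-176735966 (minus) in Cep170, chr5:31260441-31260469 (minus) in Ift172 and chr17:25092866-25092894 (plus) in Ift140. Those of the depleted transcripts lie on the plus strand at chr4:94621888-94621916 in Ift74, chr16:49759339-49759367 in Ift57, chr12:86162180-86162208 in Ift43 and chr11:108437253-108437281 in Cep112. The distance from the pentamer to the end of the coding sequence was 551 bases in Cep97, 163 in Cep170b and 101 in Ift43, but 2695 in Cep112. Transcripts that gained and transcripts that lost reads in the pulldown are both among these lines. Only genes with such a stretch could be shown, so the lines cannot tell whether having one separates gains from losses. The depleted Ift81, Ift27, Cep19 and Cep83 had no such coding stretch, though each held GGACT somewhere in its transcript. Every enriched member had one, as did the depleted Cep126, which is not shown. On the sense strand of the whole transcript, GGACT was present in 55 of the 58 members that could be tested (94.8%) and in 89.3% of all tested transcripts, with a median of 1.06 and 1.02 per kilobase. Of all tested protein-coding genes 93.1% held GGACT, with a median of 1.04 per kilobase. The members without it were Cep70, Cep57l1 and Ift52. Across the 58 members the log2 fold change and the number of GGACT per kilobase had a Spearman rho of -0.0302 (0.111 over all 13619 tested genes with an annotated transcript), where members share their libraries and are not independent. A match is a sequence only, and no m6A was measured in these libraries.

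Total counts were 39499994 and 36236531 in the inputs against 19530226 and 24903212 in the RIP libraries, of which 8.37% to 11.5% lay on protein-coding genes. The members together held 6504 and 8979 input counts against 6521 and 5811 RIP counts, so that each member rests on a small number of reads. Markers of retinal progenitors (9 of 9), ganglion cells (10 of 10), amacrine and horizontal cells (8 of 8) and photoreceptor precursors (6 of 7) had at least 10 counts in both inputs, whereas 8 of 12 lens markers and 4 of 8 markers of pigment epithelium, Rpe65, Tyr, Tyrp1 and Pmel, were at 0. The summed CPM (TMM-scaled counts relative to library size) of ganglion cell markers was 108 and 103 in the inputs against 39.2 and 38.6 in the RIP libraries, and that of endothelium and pericyte markers 35.1 and 33.7 against 69.2 and 70.9. Their part in the values of the members was not tested.

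Pulldown and input were set against each other with the quasi-likelihood method of edgeR, on the 13632 genes that passed a filter on low counts, with TMM scaling, which sets every fold change relative to the average tested transcript. Enriched means here a log2 fold change of 1 or more together with an unadjusted p below 0.05, and depleted means -1 or less with the same p. Of the 62 members 58 were tested, 36 Cep, 14 Ift and all 8 Bbs genes. The other 4, Cep112it, Cep112os1, Cep295nl and Ift88os, had at most 5 counts in any library. The smallest two-sided p of an exact permutation test is 0.333 with 2 libraries a group, which is why the spread is borrowed across genes in the model.

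Most of these transcripts, 45 of 58, were not called in either direction. Cep97, Cep170b, Ift172 and Ift140 were enriched, 4 of 58 (6.90%, against 9.43% of all tested genes). Ift74, Ift81, Ift57, Cep112, Cep83, Ift43, Cep19, Cep126 and Ift27 were depleted, 9 of 58 (15.5%, against 17.2% of all tested genes). With all libraries in the fit both shares were close to the background and set the members apart in neither direction. Leaving out an input changed the distance of the members from the background, as given below. When the quasi-likelihood p was adjusted over all genes by Benjamini and Hochberg's method, 2 enriched members (Cep97 and Cep170b, background 3.48%) and 4 depleted members (Ift74, Cep112, Cep19 and Ift27, background 9.78%) stayed below 0.05. With the replicate number as a block 8 depleted members passed the adjusted limit in place of 4, and the added ones were Ift43, Ift81, Ift57 and Cep83 at adjusted p of 0.0135, 0.0151, 0.0182 and 0.0387 in edgeR's quasi-likelihood fit. Their folds were smaller under the block. The SE rose from 0.489 to 0.531 for Ift43 and from 0.634 to 0.690 for Ift57. It fell from 0.740 to 0.671 for Ift81 and from 0.619 to 0.556 for Cep83. For Ift43 and Ift57 the lower adjusted p thus came neither from a larger fold nor from a smaller SE. With scaling by library size alone there were 7 enriched and 8 depleted of the 58 members, where 17.3% and 12.7% of all tested genes were enriched and depleted. Both RIP libraries lay above both inputs for 10 members (17.2%, against 29.6% of all tested genes) and below both for 20 (34.5%, against 31.3%), and the groups overlapped for the other 28. The median log2 fold change of the members was -0.28, beside -0.05 over all tested genes, with 20 members above 0 and 38 below. Scaling by library size alone moved these medians to 0.07 and 0.27, so that the sign of the members' median depends on the scaling. Taken by replicate, the median log2 ratio of RIP to input was 0.02 in replicate 1 and -0.57 in replicate 2 (SD 0.418, n = 2), a gap wider than the distance of the median from 0.

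**Figure D1:**
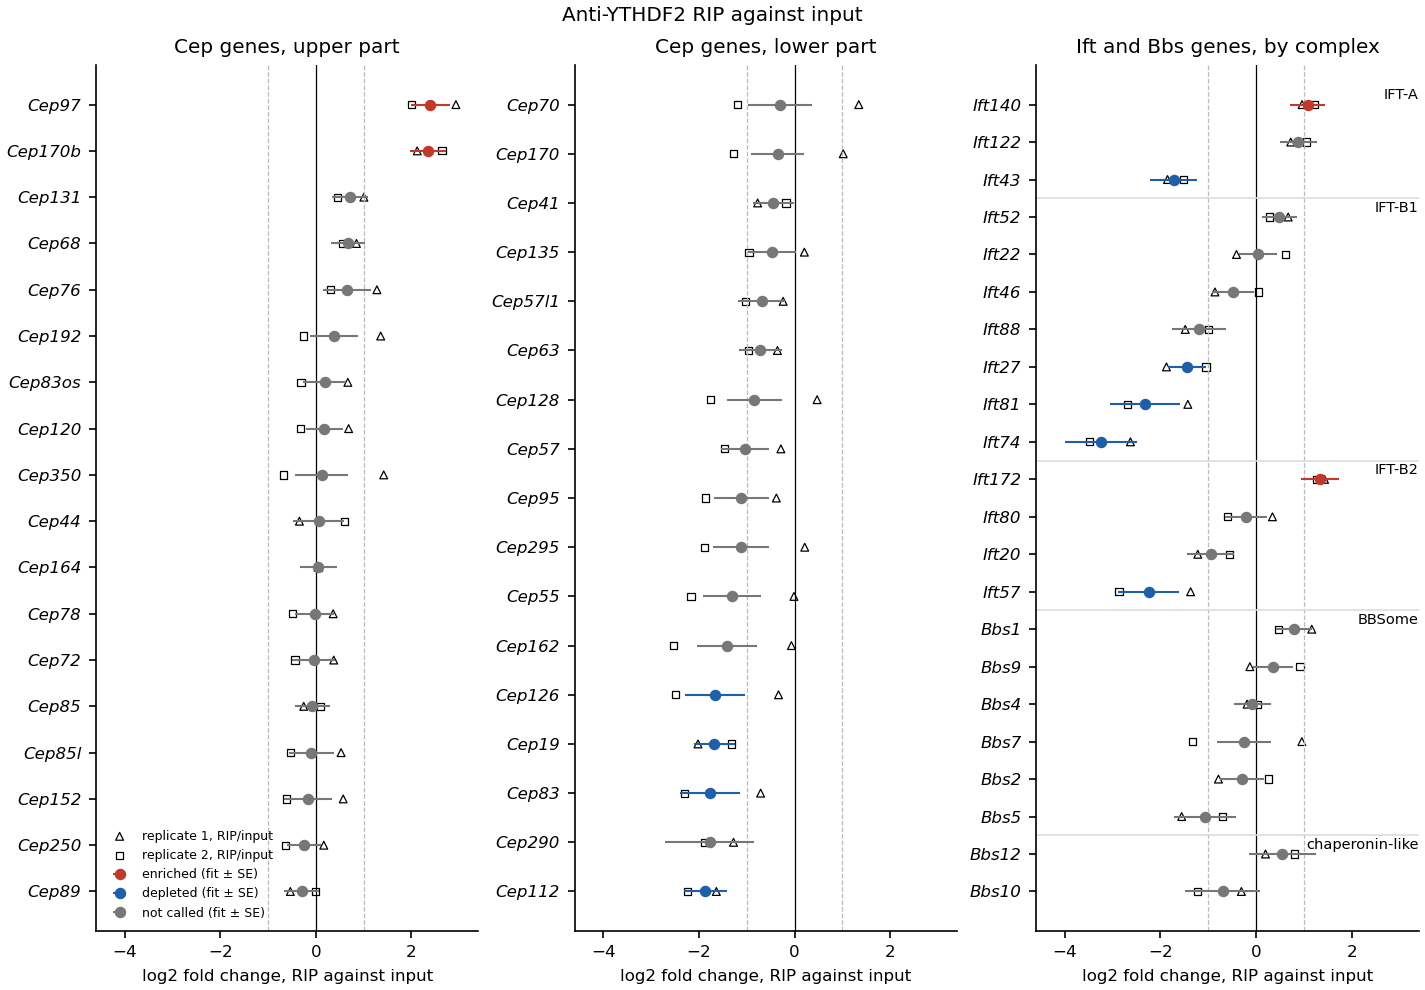
Log2 fold change of anti-YTHDF2 RIP against input (x axis) for tested genes (y axis), the Cep genes in order of value and the Ift and Bbs genes by complex. Filled points are the fit with its SE, coloured by call, open symbols are the ratio of each replicate, and dashed lines mark -1 and 1. Cep97 at 2.40 and Cep170b at 2.34 stand clear of the other Cep genes, while the IFT-B1 genes run from 0.49 (Ift52) to -3.25 (Ift74).

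The most enriched member was Cep97, whose protein caps the distal end of centrioles together with CP110 and has to leave the mother centriole before a cilium can grow. Cep97 (ENSMUSG00000022604, chr16:55899888-55934855, minus strand) had 93 and 176 input counts against 536 and 492 RIP counts, or 3.96 ± 1.65 and 20.8 ± 0.558 CPM (SD, n = 2). Both RIP libraries lay far above both inputs, and the fold was 5.26 (log2 fold change 2.40, SE 0.403, adjusted p = 0.00736 in edgeR's quasi-likelihood fit). Its partner Ccp110, the gene of CP110, which is no member and was looked at after the values of Cep97 had been seen, was not called (log2 fold change 0.32). The ratio of Cep97 to Ccp110 counts within a library went from 0.877 and 0.394 in the inputs to 2.55 and 1.71 in the RIP libraries.

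Cep170 and Cep170b are paralogs, the first a protein of the subdistal appendages, where the mother centriole anchors microtubules, the second a related microtubule-associated protein, and their transcripts parted in the pulldown. Cep170b (ENSMUSG00000072825, chr12:112720455-112746592, plus strand) had 304 and 197 input counts against 999 and 859 RIP counts, 7.42 ± 2.39 against 37.6 ± 2.74 CPM (SD, n = 2). It was enriched 5.07-fold (log2 fold change 2.34, SE 0.379, edgeR quasi-likelihood adjusted p = 0.00637). Cep170 had 107 and 366 counts in the inputs, a wide gap that spans its 164 and 106 counts in the RIP libraries, and was not called (log2 fold change -0.35, SE 0.554). Within single libraries there were 2.84 and 0.538 Cep170b reads per Cep170 read in the inputs but 6.09 and 8.10 in the RIP libraries. The difference between the paralogs was not tested, but the ratio was higher in both RIP libraries than in either input.

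Other proteins that hold the centrioles together or form the subdistal appendages gave no enriched transcript and 1 depleted one. Among all tested genes 9.43% were enriched and 17.2% depleted. Cep250 encodes the main protein of the linker between the centrioles and had the most counts of the remaining Cep genes when the 4 libraries are summed, 351 and 515 for input against 298 and 232 for RIP. It was not called (log2 fold change -0.25, SE 0.353), and 11.1% of its exonic bases overlap a gene on the opposite strand. Cep68, another linker protein, had both RIP libraries (312 and 350 counts) above both inputs (229 and 340) after scaling, with a log2 fold change of 0.68 and an adjusted p of 0.237 in edgeR's quasi-likelihood test. Cep19, a small protein of the mother centriole that brings the GTPase RABL2 to the cilium base, was depleted. Cep19 (ENSMUSG00000035790, chr16:32099800-32108069, plus strand) had 150 and 110 input counts against 28 and 31 RIP counts, 3.85 ± 0.914 and 1.20 ± 0.127 CPM (SD, n = 2). The groups did not overlap, and the log2 fold change was -1.68 (SE 0.431, edgeR quasi-likelihood adjusted p = 0.0369), a 3.21-fold lower level.

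At the distal end of the centriole and the base of the cilium, 1 of 8 transcripts was enriched (Cep97) and 1 depleted (Cep83). These shares, 12.5% each, stand beside 9.43% and 17.2% of all tested genes. Cep83, a protein of the distal appendages that dock the centriole at the membrane, had 54 and 197 input counts against 25 and 28 RIP counts (log2 fold change -1.77, edgeR quasi-likelihood adjusted p = 0.0962). Its call was lost without input 2, at -0.59, and without either RIP library. Cep164, another distal appendage protein, had 230 and 174 input counts against 180 and 127 RIP counts and was not called (log2 fold change 0.05, SE 0.381). Cep290, a transition zone protein whose mutations are a frequent cause of Leber congenital amaurosis, had very few reads for a transcript of 8211 nt, 16 and 95 input counts against 5 and 18 RIP counts. Input 1 and RIP 2 overlapped in CPM (0.480 and 0.748), and the log2 fold change of -1.78 (SE 0.927) was not called, although the replicate block called it depleted at -1.63 (unadjusted p = 0.0335, adjusted p = 0.132 in edgeR's quasi-likelihood fit). Another gene on the opposite strand shares 7.58% of the exonic bases of Cep290. Cep162, which helps the transition zone to assemble, was at -1.41 with an adjusted p of 0.169 by the quasi-likelihood test of edgeR and was called under the block at -1.27.

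None of the 10 transcripts of centriole duplication and assembly was called, and their log2 fold changes ran from -1.12 to 0.66. Among all tested genes 9.43% were enriched and 17.2% depleted, and 10 genes are too few to tell the absence of calls from these shares. Cep192 and Cep152 are the scaffolds that bring the kinase PLK4 to the centriole, and Cep63 is the partner of Cep152. Cep192 had 64 and 178 input counts against 124 and 104 RIP counts (log2 fold change 0.38, SE 0.501). Cep152 had 48 and 122 input counts against 54 and 56 RIP counts (log2 fold change -0.16, SE 0.508). Both genes share the same picture, a wide gap between the inputs with close RIP libraries inside it. Cep63 had 83 and 156 input counts against 49 and 56 RIP counts, so that both RIP libraries lay below both inputs in CPM, but its log2 fold change of -0.72 (SE 0.447) did not reach the limit. Cep57, which works with Cep63 at the centriole, was at -1.03 with an adjusted p of 0.213 in edgeR's quasi-likelihood test. Cep295, required to turn a new centriole into a centrosome, was the extreme case, with 114 and 441 input counts against 100 and 84 RIP counts. Its log2 fold change of -1.12 (SE 0.580) became -1.78 without input 1 and 0.12 without input 2. An antisense gene overlaps 10.9% of its exonic bases, and other genes on the opposite strand overlap 4.38%, 3.36% and 0.474%.

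Among the 10 transcripts of centriolar satellites and the surrounding matrix, none was enriched and Cep112 and Cep126 were depleted. That is 0% enriched and 20% depleted, against 9.43% and 17.2% of all tested genes. Cep112, a coiled-coil protein of the centrosome (ENSMUSG00000020728, chr11:108425192-108860615, plus strand), had 197 and 161 input counts against 48 and 24 RIP counts, 5.30 ± 0.860 and 1.45 ± 0.639 CPM (SD, n = 2). Both RIP libraries were clearly lower, with a log2 fold change of -1.86 (SE 0.456, edgeR quasi-likelihood adjusted p = 0.0316). Cep126, which organises microtubules at the centrosome, had 45 and 160 input counts against 27 and 20 RIP counts (log2 fold change -1.66, edgeR quasi-likelihood adjusted p = 0.120). Its level in input 1 was 1.35 CPM, not far above the 1.07 CPM of RIP 1, and without input 2 its log2 fold change was -0.51 and the call was lost. Cep131, a satellite protein, was the only one of the 10 above 0, at 0.72 with an adjusted p of 0.236 in edgeR's quasi-likelihood fit. Cep55, which acts in the last step of cell division, and Cep95 were at -1.30 and -1.11 and were not called.

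Intraflagellar transport gave the widest spread of the families, with 2 of 14 tested transcripts enriched (14.3%, against 9.43% of all tested genes) and 5 depleted (35.7%, against 17.2%), differences that were not tested. IFT-A, the complex that returns cargo from the tip of the cilium, gave an enriched transcript of 6942 nt and a depleted one of 783 nt. Ift140, a large core subunit (ENSMUSG00000024169, chr17:25016085-25099495, plus strand), had 167 and 126 input counts against 246 and 206 RIP counts, 4.34 ± 0.945 against 9.15 ± 0.838 CPM (SD, n = 2). The groups did not overlap and Ift140 was called enriched (log2 fold change 1.08, SE 0.368, edgeR quasi-likelihood adjusted p = 0.0897), just inside the limit. Ift122, a second large core subunit, had 96 and 86 input counts against 120 and 125 RIP counts and stood just outside it (log2 fold change 0.89, unadjusted p = 0.0449 and adjusted p = 0.158 in edgeR's quasi-likelihood fit). Ift43, the small peripheral subunit, went the other way, from 191 and 102 input counts to 40 and 25 RIP counts (log2 fold change -1.72, SE 0.489, edgeR quasi-likelihood adjusted p = 0.0511).

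IFT-B carries cargo outward, and its core IFT-B1 held the strongest depletion of all members. Ift74 and its partner Ift81, which together form the tubulin-binding module of the train, were both depleted. Ift74 (ENSMUSG00000028576, chr4:94614491-94693229, plus strand) had 49 and 191 input counts against 6 and 12 RIP counts, 3.52 ± 2.90 and 0.368 ± 0.184 CPM (SD, n = 2). Every RIP value was below every input value in spite of the spread of the inputs, and the level was 9.49-fold lower (log2 fold change -3.25, SE 0.751, edgeR quasi-likelihood adjusted p = 0.0260). Without input 2, the higher of the inputs, the log2 fold change of Ift74 was -1.99 and the adjusted p in edgeR's quasi-likelihood fit 0.0592, so that the call by the unadjusted limit held but the fold was smaller. Ift81 had 32 and 129 input counts against 9 and 14 RIP counts (log2 fold change -2.32, edgeR quasi-likelihood adjusted p = 0.0735), and without input 2 its log2 fold change of -1.03 was no longer called. Ift27, a small GTPase of the train that lets the BBSome leave the cilium, was the third depleted subunit. Ift27 (ENSMUSG00000016637, chr15:78159463-78174107, minus strand) had 286 and 239 input counts against 59 and 81 RIP counts, 7.77 ± 1.14 and 2.85 ± 0.727 CPM (SD, n = 2). The inputs lay close together, and the log2 fold change was -1.45 (SE 0.395, edgeR quasi-likelihood adjusted p = 0.0458). Ift88, the subunit whose loss in mice blocks cilium formation, had 48 and 60 input counts against 13 and 21 RIP counts. Although the groups did not overlap, Ift88 was not called (log2 fold change -1.20, unadjusted p = 0.0637 and adjusted p = 0.194 in edgeR's quasi-likelihood fit). Of the remaining core subunits Ift46, Ift22 and Ift52 were at -0.48, 0.04 and 0.49, so that 4 of the 7 core transcripts lay in both RIP libraries below both inputs and 1, Ift52, above, where 31.3% and 29.6% of all tested genes did so.

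The outer part of IFT-B, IFT-B2, had 1 enriched, 1 depleted and 2 uncalled transcripts. Ift172, the largest subunit of the train (ENSMUSG00000038564, chr5:31253277-31291116, minus strand), had 51 and 60 input counts against 104 and 101 RIP counts, 1.64 ± 0.155 and 4.16 ± 0.0543 CPM (SD, n = 2). Replicates of both kinds agreed closely, and the fold was 2.53 (log2 fold change 1.34, SE 0.394, edgeR quasi-likelihood adjusted p = 0.0579). Ift57, a coiled-coil subunit, had 41 and 104 input counts against 12 and 10 RIP counts (log2 fold change -2.25, SE 0.634, edgeR quasi-likelihood adjusted p = 0.0504). Its call was lost without input 2, at -1.46, and 7.86% of its exonic bases overlap an antisense gene. Ift20, which also serves at the Golgi apparatus, had 117 and 63 input counts against 38 and 30 RIP counts and was not called (log2 fold change -0.95), and Ift80 was at -0.22.

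Ratios of 2 transcripts within the same library do not depend on the scaling of libraries and show how far subunits of the same trains parted. There were 3.41 and 0.660 Ift140 reads per Ift74 read in the inputs but 41 and 17.2 in the RIP libraries. For each Ift172 read there were 5.61 and 3.98 Ift27 reads in the inputs but 0.567 and 0.802 in the RIP libraries. The ratio of Ift172 to Ift88 was 1.06 and 1 in the inputs against 8 and 4.81 in the RIP libraries. In each of these pairs both RIP libraries lay on the same side of both inputs, and the pairs were chosen after the values had been seen. Each pair also sets a longer transcript against a shorter one. Ift140 and Ift172 have 6942 and 5403 nt, while Ift74, Ift27 and Ift88 have 2139, 1013 and 3088 nt. The part of transcript length in these ratios was not tested.

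**Figure D2:**
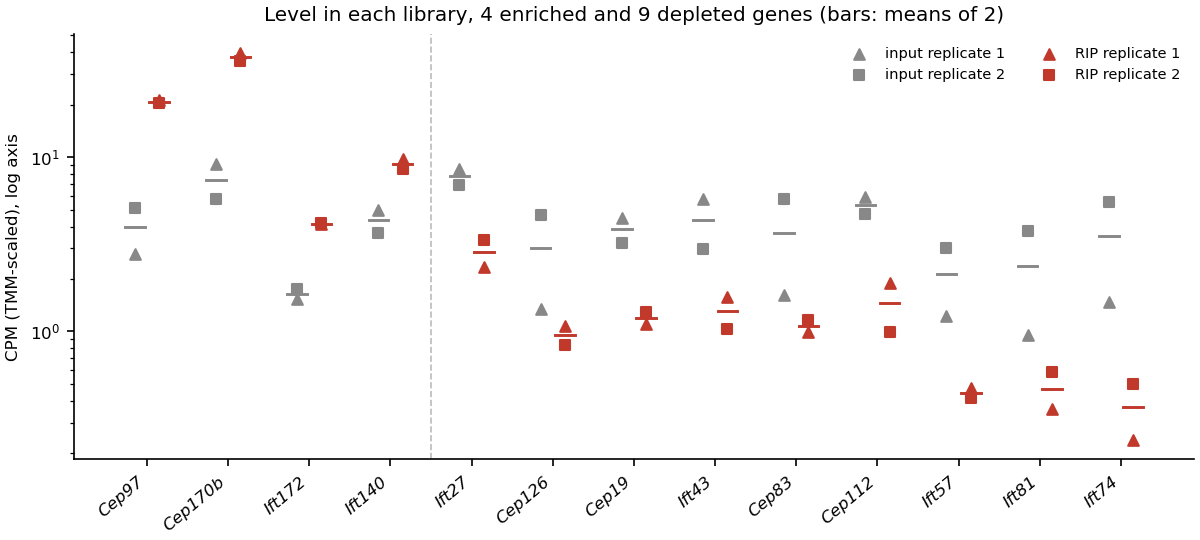
Level in CPM (y axis, log scale) of the 4 enriched and 9 depleted genes (x axis) in the input libraries (grey) and the RIP libraries (red), triangles for replicate 1, squares for replicate 2, and a bar at the mean of 2. The inputs of Ift74, Ift81, Cep83 and Cep126 lie far apart, with input 2 the higher, while those of Ift172, Ift27 and Cep112 lie close together, and no RIP value overlaps an input value.

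None of the 8 Bardet-Biedl transcripts was called, while 9.43% of all tested genes were enriched and 17.2% depleted. Bbs1, a BBSome subunit often mutated in the human syndrome, came nearest, with 118 and 171 input counts against 200 and 166 RIP counts (log2 fold change 0.80, SE 0.377, edgeR quasi-likelihood adjusted p = 0.196). Both RIP libraries were above both inputs in CPM (7.92 and 6.90 against 3.54 and 4.98). Bbs9, part of the BBSome core, had 136 and 83 input counts against 94 and 110 RIP counts (log2 fold change 0.35, SE 0.419). The groups overlapped for Bbs9, as they did for Bbs2, Bbs4 and Bbs7. Bbs2, a core subunit, had 89 and 56 input counts against 39 and 47 RIP counts (log2 fold change -0.30, SE 0.466). Bbs4, which joins the complex late, had 113 and 106 input counts against 75 and 76 RIP counts (log2 fold change -0.08, SE 0.381). Its libraries lay at 3.39 and 3.09 CPM before and 2.97 and 3.16 CPM after the pulldown. Bbs7 was at -0.26 and Bbs5, the lipid-binding subunit, at -1.07, neither called. The chaperonin-like Bbs12 and Bbs10, which help the BBSome to assemble, had at most 22 counts in any library and were at 0.55 and -0.70. Both RIP libraries lay below both inputs for 2 of the 8, Bbs5 and Bbs10 (25%, against 31.3% of all tested genes). The log2 fold changes of the 8 Bbs genes had a median of -0.17 and those of the Ift and Cep genes medians of -0.72 and -0.28, differences that were not tested.

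FPKM values, which the authors scaled by gene length and library size, order the levels between genes. Ift27 had the highest input level of the tested members, 6.84 and 6.27 FPKM, followed by Ift43 with 2.79 and 1.63 and Cep19 with 2.06 and 1.64. These 3 genes were all depleted in the pulldown. The order of Ift43 and Cep19 does not hold beyond their spread. In the RIP libraries Cep170b came first with 5.87 and 3.95 FPKM, ahead of Ift27 with 2.76 and 2.96, Ift52 with 3.15 and 1.78 and Cep97 with 2.75 and 1.98, and Cep97 had a mean of only 0.370 FPKM in the inputs. Cep290 was the lowest of the tested members in both, with means of 0.121 and 0.0345 FPKM. The median member stood at 0.441 FPKM for the inputs and 0.402 for the RIP libraries.

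Fold changes went with the length of the transcript, and among the members with GC content as well. Over all 13619 tested genes with an annotated transcript the log2 fold change and the length had a Spearman rho of 0.510, and over the 58 members 0.362, where genes of the same libraries are not independent. The log2 fold change and the GC content had a Spearman rho of 0.0719 over all these genes and 0.386 over the members. Of the 6 members under 2000 nt, 3 were depleted (Ift43, Ift27 and Cep19) and 5 lay below 0, while 42.5% of all tested genes of that size were depleted. Of the 18 members of 5000 nt or more, 4 were enriched and 0 depleted, beside 20.1% and 3.52% of all tested genes of that size, and these 4 were all the enriched members. Yet 8 of the 18 lay below 0 (44.4%, against 25.4% of all tested genes of that size). The median of the 18 was 0.09, beside 0.50, so that the long members as a group lay under the general trend. This shortfall was uneven between replicates. The median log2 ratio of the 18 was 0.677 in replicate 1, beside 0.826, but -0.415 in replicate 2, beside 0.336. Input 2 was the higher input for 15 of the 18 (83.3%, against 66.3% of all tested genes of that size). Cep97 (7911 nt) and Cep170b (6641 nt) stood well above the median of 0.56 that genes of 6500 to 9000 nt had. Ift74 (2139 nt), Ift57 (2601 nt) and Ift81 (2950 nt) stood well below the median of -0.18 for 2000 to 3000 nt, whereas Ift43 (783 nt) was above the median of -2.06 for genes under 1000 nt.

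**Figure D3:**
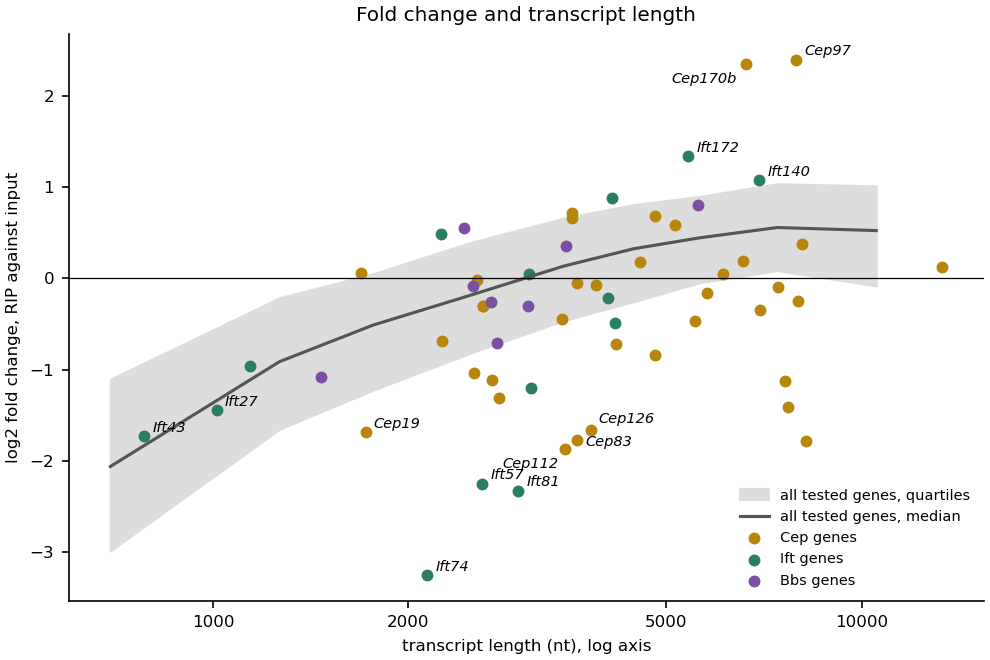
Log2 fold change of RIP against input (y axis) against transcript length in nt (x axis, log scale) for the 58 tested members, coloured by family, with the median and quartiles of all tested genes in bins of length in grey. The members' values tend to rise with length, and the 4 enriched genes lie at the right above the grey band. Ift43 and Ift27 lie within the band. Ift74, Ift57 and Ift81 lie below it, as do long members such as Cep290, Cep162 and Cep295.

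When smooth trends on length and GC content were taken out of the counts before the fit, 2 enriched members remained, Cep97 at 2.06 and Cep170b at 1.37, with adjusted p of 0.0356 and 0.0846 in edgeR's quasi-likelihood test. Ift172 and Ift140 were then at 0.71 and 0.38 and lost their calls. Ift27 and Ift43 were at -0.23 and 0.04 and lost theirs as well. The members Cep162, Cep250, Cep295 and Cep63 became depleted, at -1.91, -1.15, -1.54 and -1.08, and of the 9 depleted members Ift74 (-2.49), Ift81 (-2.02), Ift57 (-1.94), Cep112 (-1.81), Cep83 (-1.71), Cep126 (-1.46) and Cep19 (-1.02) kept the call. None of the depleted members had an adjusted p below 0.05 in that fit. Of all tested genes 7.64% were enriched and 10.3% depleted in it by the unadjusted limit.

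The inputs of these genes differed from each other far more than the RIP libraries did. The higher input exceeded the lower at least 2-fold in CPM for 21 of the 58 members, and the higher RIP library the lower for 2. Over the members log2 CPM had a Pearson r of 0.590 for the pair of inputs and 0.944 for the pair of RIP libraries, against 0.875 and 0.947 over all tested genes, as a description across genes. The gap between the inputs went with base composition. Input 2 was the higher in 22 of the 24 members with a GC content under 45% (91.7%, against 82.9% of all tested genes of that GC content). Over the 58 members the log2 difference of input 2 minus input 1 had a Spearman rho of -0.619 with GC content (-0.578 over all tested genes). The part of this gap in the fold changes was not tested beyond the fits that left out a library. Without input 1 the median log2 fold change of the members was -0.50, beside -0.01 over all tested genes. Without input 2 it was -0.01, beside 0.01, so that the distance of the members from the background depended on which input was kept.

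**Figure D4:**
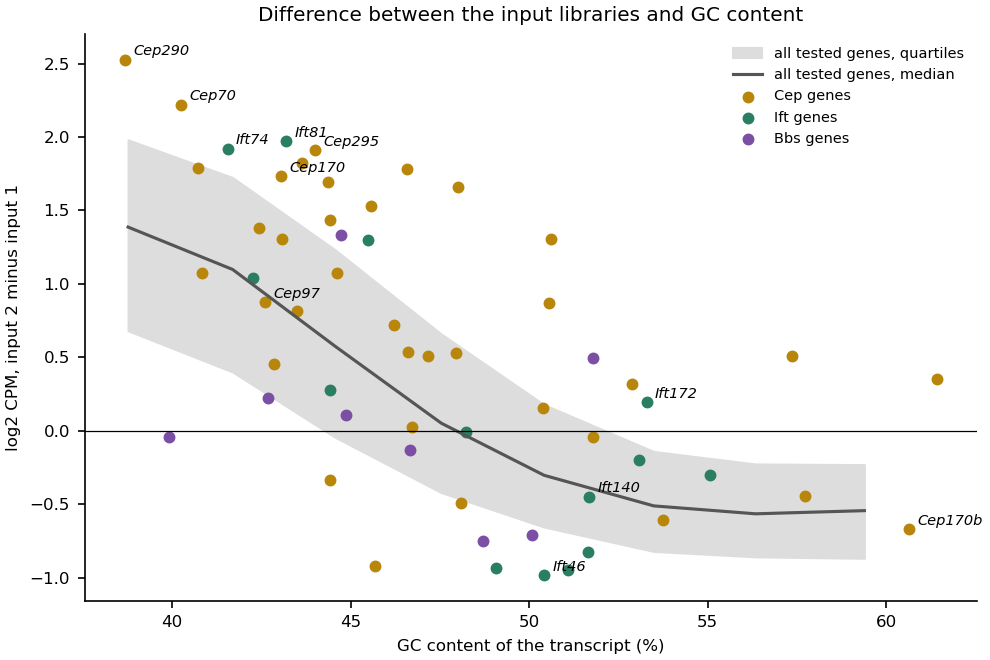
Difference in log2 CPM of input 2 minus input 1 (y axis) against the GC content of the transcript in percent (x axis) for the 58 tested members, coloured by family, with the median and quartiles of all tested genes in bins of GC content in grey. AT-rich members such as Cep290, Cep70, Ift74 and Ift81 lie far above 0, and most members above 50% GC lie within 1 of 0.

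Cep97 and Cep170b were called under all 13 other settings and with each of the 4 libraries left out. Ift172 and Ift74 also kept their calls with each library left out, whereas the other 9 called members lost theirs without at least 1 library. Ift140 was called without input 1 (log2 fold change 1.32) but not without input 2 (0.86), nor without RIP 1 (1.09) or RIP 2 (1.27), where the fold stayed as large and the unadjusted p rose above the limit. Without input 1 Ift74, Ift81, Cep83 and Cep126 were lower, at -3.91, -2.99, -2.41 and -2.29. Ift27 and Cep19 lost their calls without RIP 1, at -1.10 and -1.47, and Ift43 and Cep112 without RIP 2, at -1.34 and -1.38. The median log2 fold change of the members was -0.27 without RIP 1 and -0.15 without RIP 2, beside -0.02 and -0.03 over all tested genes. In neither of these fits did any member pass the adjusted limit.

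**Figure D5:**
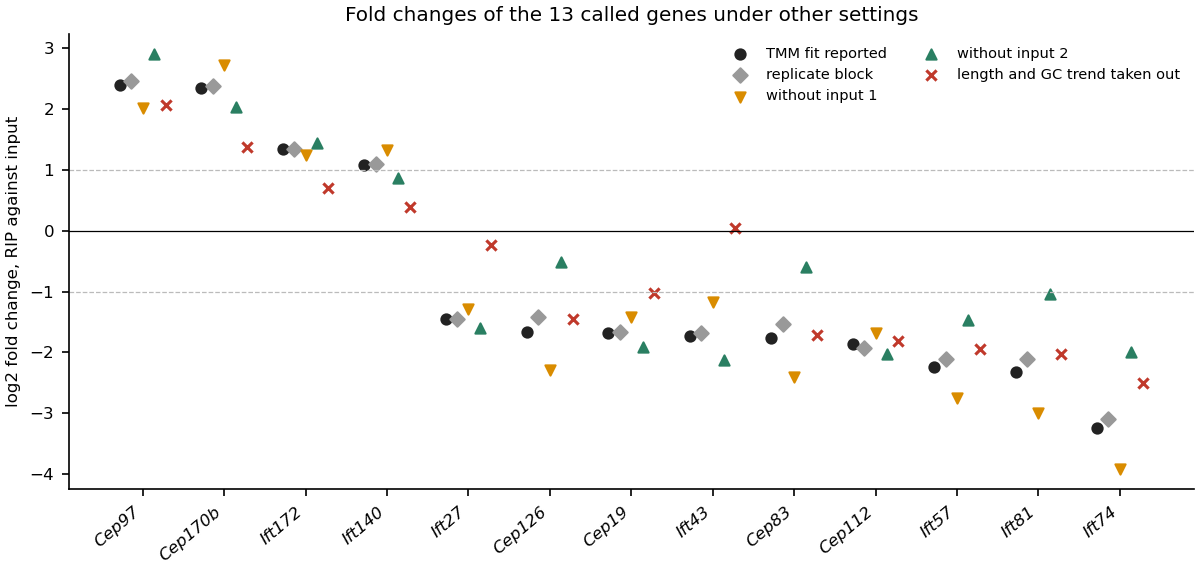
Log2 fold change of RIP against input (y axis) of the 13 called members (x axis) in the fit reported, with the replicate block, without input 1, without input 2, and with the length and GC trend taken out. Dashed lines mark -1 and 1. Cep97 and Cep170b stay above 1 throughout, while Ift27 and Ift43 move to -0.23 and 0.04 once the trend is taken out.

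Other genes of the same structures, taken from lists written with earlier results of these data known, gave 6 enriched and 20 depleted of 103 tested transcripts (5.83% and 19.4%, against 9.43% and 17.2% of all tested genes), with a median log2 fold change of -0.08. Of 50 other centrosome and centriole genes 4 were enriched and 10 depleted (8% and 20%, against 9.43% and 17.2% of all tested genes). The enriched ones with the largest changes were Mcph1, a regulator of centrosomes in the cell cycle, at 1.34, Crocc, which forms the ciliary rootlet, at 1.32 and Haus2, a subunit of the augmin complex, at 1.23. Only Crocc among the 4 enriched had an adjusted p below 0.05 in edgeR's quasi-likelihood test (0.0349). With the trend on length and GC taken out Crocc was at 0.23 and Mcph1 at 0.92, and both lost their calls. The small calcium-binding centrins Cetn3 and Cetn2 were depleted at -2.78 and -2.73, as was Cntln, a linker protein, at -2.72.

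Of 17 other tested intraflagellar transport genes 1 was enriched and 3 were depleted (5.88% and 17.6%, against 9.43% and 17.2% of all tested genes). The enriched one was Ttc30a1 of IFT-B at 1.44, with 32 and 33 input counts against 63 and 66 RIP counts. The depleted ones were Hspb11, the gene of IFT25 and thus of the direct partner of Ift27, at -3.38, Dync2li1, a light intermediate chain of the return motor, at -1.86, and Traf3ip1, the gene of IFT54, at -1.26. Hspb11 had 243 and 192 input counts against 8 and 22 RIP counts (edgeR quasi-likelihood adjusted p = 0.00645), and like Ift27 it lost its call once the trend on length and GC was taken out, at -0.85. Of 15 other genes of the BBSome and of ciliary trafficking 1 was enriched and 4 were depleted (6.67% and 26.7%, against the same 9.43% and 17.2%). Trim32, a ubiquitin ligase that is itself a Bardet-Biedl gene, was enriched at 2.81 with 20 and 64 input counts against 253 and 175 RIP counts (edgeR quasi-likelihood adjusted p = 0.0152). Arl3, a GTPase that releases lipidated proteins in the cilium, was depleted at -3.56 with 1919 and 1289 input counts against 124 and 76 RIP counts (edgeR quasi-likelihood adjusted p = 0.00184). Bbip1, the smallest BBSome subunit, was depleted at -1.87, and the GTPase Rab8a at -1.82. Of 21 transition zone genes 0 were enriched and 3 depleted (0% and 14.3%, against 9.43% and 17.2% of all tested genes). The depleted ones were Tmem17 at -2.06, Rpgr, a retinitis pigmentosa gene, at -1.96 and Rpgrip1, which anchors RPGR in photoreceptors, at -1.09. None of them had an adjusted p below 0.05 in the quasi-likelihood test of edgeR. Without input 2 Rpgr was at -0.58 and Rpgrip1 at -0.47 and neither was called. Tmem17 lost its call without any 1 of the 4 libraries, and under the replicate block Tmem17 (-2.09, unadjusted p = 0.0842 in edgeR's quasi-likelihood fit) and Rpgrip1 (just short of the limit of -1) were not called.

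Other calls of these lists also rested on single libraries or on the trend. With the trend taken out Dync2li1 was at -0.83 and Bbip1 had an unadjusted p of 0.0529 in edgeR's quasi-likelihood fit, and neither was called. Without RIP 1 or without RIP 2 Mcph1 and Traf3ip1 were not called, Haus2 was lost without RIP 1 (0.86) and without input 1 (0.99), and Ttc30a1 and Bbip1 were lost without RIP 2 at 1.46 and -1.61. Arl3, Trim32, Cntln, Cetn2, Cetn3 and Rab8a were called with each library left out and with the trend taken out, though at other sizes. Cetn3 was at -1.93 without input 2, Cetn2 at -2.05 without RIP 2, and Trim32 at 2.21 without input 1 and 3.83 without input 2. With the trend taken out Cetn3 and Cetn2 were at -1.10 and -1.33 and Arl3 at -2.30.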

How the data were processed

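Input and anti-YTHDF2 RIP libraries of P0 retina, 2 of each, were compared. The authors deposited counts per gene, not normalized and not pooled, and FPKM values, which the authors scaled by gene length and library size. The submitters' processing notes name STAR 2.5, HTSeq and the build GRCm38. The annotation release and the strand setting of the counting are not given in the sources used here, so that genes overlapping on opposite strands are uncertain. GENCODE M21 held 52403 of the 52550 gene identifiers and gave coordinates. Each gene was represented by its longest protein-coding transcript there, or by its longest transcript where it had none.

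Counts were tested in R 4.3.3 with edgeR 4.0.16 (filterByExpr, TMM, glmQLFit, glmQLFTest, Benjamini-Hochberg adjustment), with SE derived from the estimate and its F value. Precision is limited by counts in members with few reads and by the replicates elsewhere. Equal replicate numbers mark a shared replicate in the series' design text. The difference between the inputs and that between the RIP libraries had a Spearman correlation of -0.032 over all tested genes and -0.0524 over the members. A block on the replicate number was an alternative, as were library size as the only scaling, upper quartile scaling, TMM leaving out small, ribosomal and mitochondrial RNA, no filter, a minimum of 10 counts in all libraries, the exact test of edgeR, DESeq2 1.42.0, limma 3.58.1 with a pseudocount of 0.1 or 1 added to the FPKM at a mean FPKM of at least 0.1 or with no such filter, trends on length and GC taken out (mgcv 1.9.3, basis size 8) with and without the block, and each library left out in turn. The tests were tried on simulated data.

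The members and lists were chosen with earlier results of these data known. Members with an adjusted p below 0.05 and a fixed list of 20 members were described with their counts, and other members were named with their fold change or within a range. Of each pathway list, the called genes with the 3 largest changes in each direction were named. Counts given for Ift74, Ift81, Ift57, Ift43, Cep83, Cep126, Cep68, Cep83os, Ccp110, Ttc30a1, Hspb11, Trim32 and Arl3 beyond that rule, and the pairs of genes whose ratio is given, were chosen after their values were seen. Of 1 tested member, which enters all counts and medians, no value is reported here.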

Additional observations from a re-analysis of the deposited data

How the results depend on the processing

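Scaling moved values near 0 and the counts at the limits. Scaling by library size alone raised the median of all tested genes from -0.05 to 0.27 and gave 7 enriched and 8 depleted members by the unadjusted limit and 3 and 1 by the adjusted limit, with Bbs1, Cep131 and Ift122 called enriched and Cep126 not called. By the unadjusted limit 17.3% and 12.7% of all tested genes were enriched and depleted under this scaling. Bbs2 was then at 0.03, Ift80 at 0.08, Cep250 at 0.09, Bbs7 at 0.10, Cep152 at 0.13 and Bbs4 at 0.25. No filter left 0 depleted members at the adjusted limit (9 by the unadjusted limit) and Bbs4 at 0.01, and at least 10 counts in every library put Cep164 and Ift22 at -0.02. The exact test gave 8 depleted members at the adjusted limit. The replicate block also gave 8, called Cep162 and Cep290 in addition, and ended none of the 13 calls. Trends on length and GC taken out left 2 enriched members, 1 of them at the adjusted limit, with and without the block, and 0 depleted members at it without the block but 3 with it (11 and 10 by the unadjusted limit). Without the block Cep83os was at -0.11, Ift22 at -0.05, Cep192 at -0.07, Cep164 at -0.78, Ift43 at 0.04, Bbs7 at 0.05, Bbs4 at 0.21, Bbs5 at 0.24 and Ift20 at 0.24. With the block Cep83os was at -0.18, Cep164 at -0.79, Bbs7 at 0.13, Ift43 at 0.14, Bbs5 at 0.15, Bbs4 at 0.23 and Ift20 at 0.35, and Cep19 lost its call.

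On log2(FPKM + 1), which understates low genes, 2 enriched and 0 depleted members were left at either limit, and Bbs2 was at 0.002, Ift80 at 0.01, Bbs7 and Cep250 at 0.02, Cep152 at 0.03 and Bbs4 at 0.06. On log2(FPKM + 0.1), with or without the filter, Bbs2 was at 0.02, Cep250 at 0.03, Bbs7 and Cep170 at 0.06, Ift80 at 0.09, and Bbs4 and Cep152 at 0.15. With the filter 1 depleted member stayed at the adjusted limit, and without it 1 enriched and 0 depleted members did. DESeq2 gave 4 enriched and 9 depleted members.

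With 1 library left out, enriched members ranged from 3 to 7 and depleted from 4 to 19, and at the adjusted limit from 0 to 7 and 0 to 15. The lone library is then assumed to vary like the other group. The lowest and highest values of genes whose direction turned were -0.62 and 0.10 for Bbs2, -0.15 and 0.06 for Bbs4, -0.77 and 0.55 for Bbs7, -0.67 and 0.63 for Cep152, -0.16 and 0.35 for Cep164, -0.97 and 0.76 for Cep170, -0.17 and 1.26 for Cep192, -0.48 and 0.02 for Cep250, -1.78 and 0.12 for Cep295, -0.32 and 0.51 for Ift22, -0.90 and 0.09 for Ift46, -0.64 and 0.39 for Ift80, -0.36 and 1.66 for Ccp110 and -0.02 and 0.50 for Cep83os. The cause was not tested. Of the 61 genes named with a value, 14 turned direction under some setting other than leaving out a library. Few reads limit Cep290, Bbs10, Bbs12 and Bbs5.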

Other observations

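Some members by symbol are noncoding or little-read neighbours of other members. Cep83os, which lies next to Cep83 on the opposite strand, had 54 and 76 input counts against 65 and 43 RIP counts and was not called (log2 fold change 0.19), while Cep83 itself was depleted. Cep112it had 5 and 3 input counts against 0 and 4 RIP counts, the protein-coding Cep295nl had 0 and 1 against 1 and 3, and Cep112os1 and Ift88os had 0 in every library.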
